A study of Mus musculus with 4 samples.

Results

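The genes examined here encode the membrane and the spectrin skeleton of the red cell. The list of 8 held the transporters and surface glycoproteins Slc4a1, Rhag, Gypc and Kel and the skeleton and linker proteins Ank1, Epb42, Sptb and Epb41, and members were found by their symbols. Of these, 7 had at least 1 probe set named in the annotation of the array, out of 18194 genes named in all, with 14 probe sets between them. No probe set was named for Epb41, so that it has no value here.

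RNA came from cells sorted on day 6 of differentiation of Runx1(Venus/+) ES cells, a line derived from CCE ES cells, on OP9 cells, a mouse stromal line. Every population therefore carried the same heterozygous allele, in which the Venus reporter is read from the proximal Runx1 promoter, and came from this 1 line with no further treatment. Population 1 was Runx1-/VE-cadherin+/Flk1+ (endothelium), population 2 Runx1+/VE-cadherin+/CD41-, population 3 Runx1+/VE-cadherin+/CD41+ and population 4 Runx1+/VE-cadherin-/CD41+ (blood progenitors). The order from 1 to 4 follows increasing commitment to blood as the sort markers define it, and is not a time course. In the authors' assays populations 2 and 3 had both lymphoid and endothelial potential. For population 4 the authors propose a restriction to primitive blood, erythroid and myeloid. Each population had 1 Affymetrix array here, so differences have no replicate check and no test, and the number of arrays limits the precision. Another set of these populations that was run on Agilent arrays was not analysed here. Values are probe set signals in linear intensity units, and signals below 100 were treated as not measured, so that they have no order, and a fold against them, taken against 100, is written as at least that fold. A fold or log2 ratio given for population 4 with no other population named is against population 1.

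Red cells must survive repeated squeezing through capillaries, and their membrane is held by a mesh of spectrin tetramers lying beneath it. The mesh is tied to the membrane at ankyrin complexes, where Ank1 joins beta spectrin to the anion exchanger Slc4a1, and at junctional complexes of actin, adducin, tropomodulin and Epb41, where Gypc is an anchor. Inherited loss of Slc4a1, Ank1, Sptb or Epb42 is known to cause spherocytosis, a haemolytic anaemia with fragile, rounded cells.

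The red cell membrane genes were highest in population 4, and 6 of the 7 measured genes were above 100 in that population alone. In a bulk sample, more cells of a type and more RNA per cell cannot be told apart. Slc4a1, which exchanges chloride for bicarbonate across the red cell membrane, had signals of 11.1, 9.05, 28.6 and 2204 in populations 1 to 4, at least 22.0-fold above population 1 in population 4. Its second probe set gave 3.37, 10.9, 23.0 and 1709, at least 17.1-fold, and the other did not exceed 7.63 in any population. The brightest probe set is of a kind whose probes can match further transcripts, and the second is not. By the 2 bright probe sets, Slc4a1 was thus under the minimum in every VE-cadherin positive population and among the clearly measured genes of population 4.

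Rhag, the Rh-associated glycoprotein that conducts ammonia and brings the Rh antigens to the surface, had signals of 1.05, 2.45, 16.5 and 482 in populations 1 to 4, at least 4.82-fold above every other population in population 4. Kel, a zinc endopeptidase that carries the Kell blood group antigens, had 17.9, 22.5, 17.0 and 584, at least 5.84-fold higher in population 4. Both were read by a single probe set. Neither gene was above 100 in populations 1 to 3.

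Gypc, a short glycoprotein that anchors the junctional complex, differed from the other genes. Its signals were 211, 427, 685 and 1381 in populations 1 to 4, above 100 throughout, and the last was 6.54-fold the first. The log2 ratio was 1.02 from population 1 to 2, 0.68 from 2 to 3 and 1.01 from 3 to 4. Of the 7 measured genes, Gypc alone exceeded 2-fold between populations 1 and 3, as 5.32% of the 9468 genes above 100 in at least 1 population did, and between populations 1 and 2, as 2.92% did. Between populations 2 and 3, 0 of the 7 reached that fold, against 3.11% of measured genes, and between populations 1 and 3, 0 of the 7 reached 4-fold, against 0.422%. Gypc was 1 of 19 of these 9468 genes (0.201%) that were at least 1.5-fold higher at each of the 3 steps, and Runx1 was another, with signals of 55.3, 358, 1297 and 2440.2. After centring the arrays on their medians the log2 ratio from population 2 to 3 was 0.30, and Gypc no longer met 1.5-fold at this step.

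**Figure D1:**
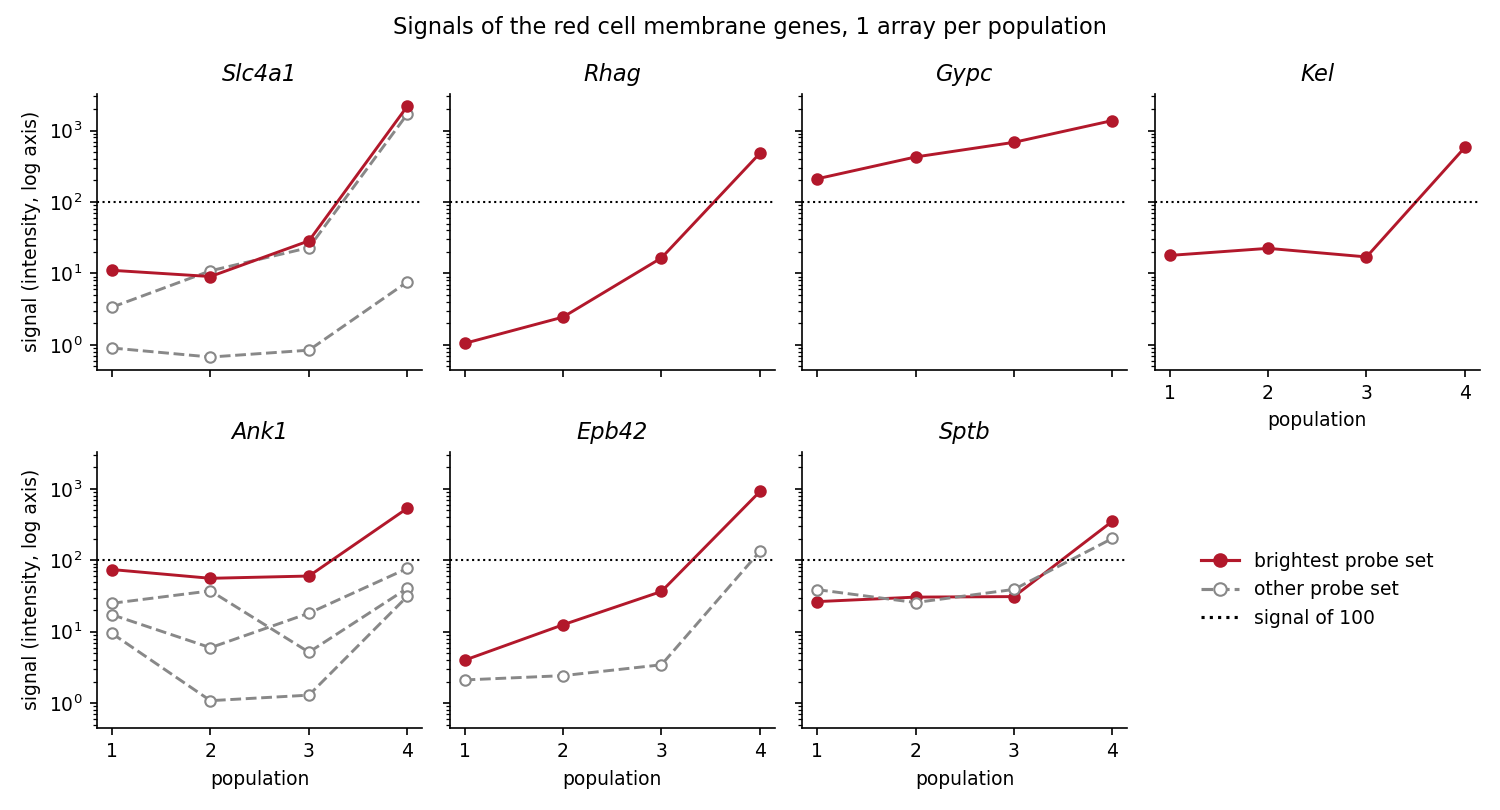
Signals (intensity, log axis) of every probe set of the 7 measured red cell membrane genes by population, each on a single array and so without error. Red lines give the brightest probe set of each gene, grey lines the others, and the dotted line a signal of 100. Gypc lies above 100 in every population, while the brightest probe sets of the other 6 genes cross it between populations 3 and 4.

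Among the linker and skeleton genes, Ank1, the ankyrin that ties spectrin to the anion exchanger, had signals of 74.1, 55.9, 60.1 and 536 in populations 1 to 4, at least 5.36-fold higher in population 4. This rested on its brightest probe set, as the other 3 reached 77.0, 40.6 and 31.4 in population 4 and were below 100 throughout. With the mean over the 4 probe sets Ank1 was not above 100 in any population, so that no fold could be given. Which transcripts of Ank1 each probe set reads was not examined.

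Epb42, a relative of the transglutaminases that steadies the contact between ankyrin and the anion exchanger, had signals of 3.98, 12.5, 36.6 and 917, at least 9.17-fold higher in population 4. Its second probe set had 2.11, 2.42, 3.44 and 133. Sptb, the beta chain of red cell spectrin, had 26.4, 30.5, 31.0 and 353 by its brightest probe set and 38.8, 25.6, 39.1 and 202 by the other, at least 3.53-fold and at least 2.02-fold higher in population 4. With signals raised to 200 in place of 100, Sptb fell short of 2-fold, with a log2 ratio of at least 0.82.

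From population 1 to population 4, all 7 measured genes were higher by 2-fold or more, where 22.4% of the 9468 genes above 100 in at least 1 population, or 11.7% of all 18194 named genes, were. From population 3 to population 4 this again held for all 7, against 7.94% of the 9468 genes and 4.13% of all named genes. By 4-fold or more, 6 of the 7 were higher than in population 1 and 5 higher than in population 3, against 4.48% and 1.33% of the 9468 genes. Since 6 of them passed the minimum through population 4 alone, their direction follows from passing it, and Gypc, which passed in every population, does not share this limit. The median log2 ratio over the 7 genes was 2.55 for population 4 over 1 and 2.42 for population 4 over 3, beside 0.36 and 0.06 over the 9468 genes, and 6 of the 7 values behind each were lower bounds. The pattern of 6 of them, below 100 in populations 1 to 3 and at least 200 in population 4, was found in 121 genes (1.28%).

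**Figure D2:**
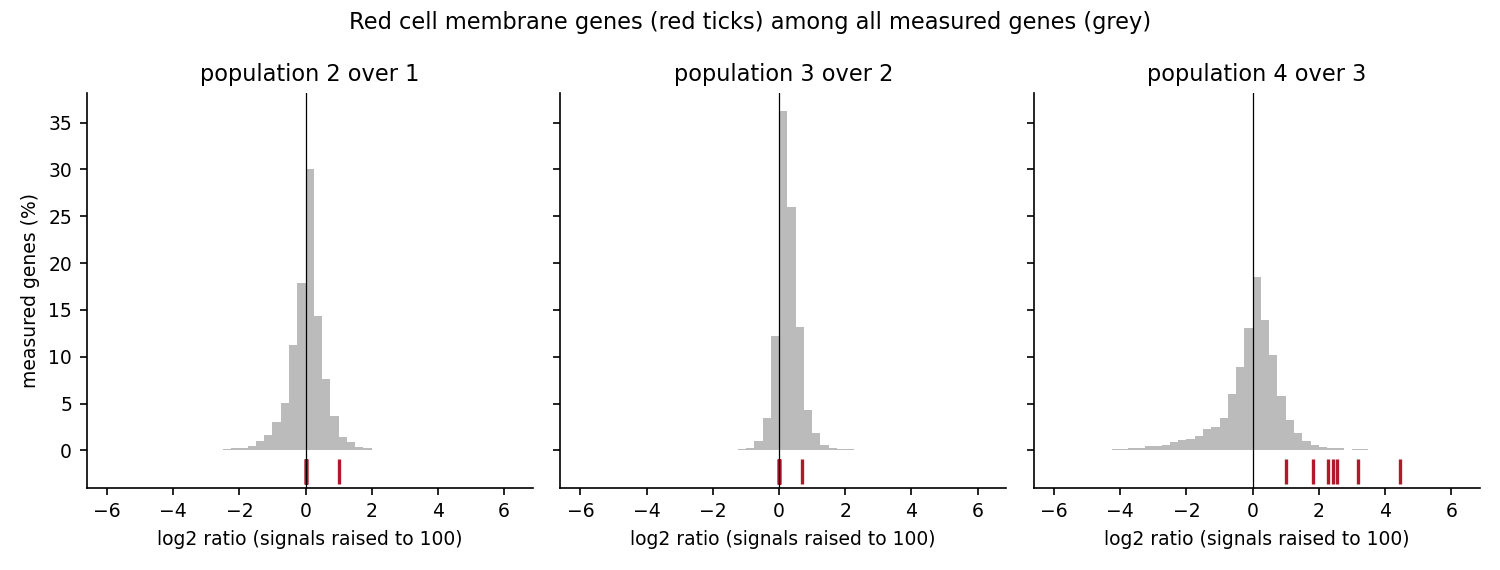
Share of the 9468 measured genes (%, grey bars) by log2 ratio at each step between neighbouring populations, with signals raised to 100 and 1 array per population. Red ticks mark the 7 red cell membrane genes. At the first 2 steps 6 ticks lie at 0, where both signals are below 100, and at the step from population 3 to 4 all 7 lie above 1.

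Probe sets could be compared within genes. Of the 14 probe sets of these genes, 10 exceeded 100, and 9 of these did so in population 4 alone, so that their highest population follows from passing the minimum. The probe set of Gypc, above 100 in every population, was highest in population 4. Over 6780 pairs of the brightest and another probe set of the same gene across the array, the log2 ratios of population 4 over 1 lay a median of 0.29 apart.

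The sorts were read against their markers. Cdh5, which encodes VE-cadherin, was at 5683, 3946, 4849 and 40.9, and Itga2b, which encodes CD41, at 667, 1135, 2418 and 1609.5. VE-cadherin RNA was thus below 100 in the VE-cadherin- population alone, while CD41 RNA was measured in CD41- population 2 as well. The 10 erythroid markers with a named probe set, globins and genes of haem synthesis, iron transport and erythroid control, had summed signals of 390, 568, 5145 and 53742 in populations 1 to 4, and 9 of them were above 100 in population 4. The erythroid sum was thus already higher in population 3, mostly through the embryonic beta-globin Hbb-bh1 at 3568. Hba-x and Hbb-y were at 568 and 271 there. Slc4a1, Rhag, Kel, Ank1, Epb42 and Sptb were below 100 in population 3, and so were the erythroid markers Alas2, Klf1 and Gata1. From population 2 to 3, 4 of the 9 erythroid markers above 100 were higher by 2-fold or more and 5 lay between, against 3.11% of measured genes higher. The 10 endothelial markers had sums of 30362, 19691, 24911 and 2238. Each of the 10 was lower by 2-fold or more in population 4 than in population 1, against 12.9% of measured genes. Cdh5, whose protein population 4 was sorted to lack, is among them. The 9 megakaryocyte markers had 2400, 1984, 4173 and 4740, the 8 myeloid markers 327, 469, 938 and 945, and the 8 stromal markers 3331, 2010, 1804 and 1466. Endothelial and stromal sums were thus lowest, and the megakaryocyte sum highest, where the red cell membrane genes were highest. The megakaryocyte markers were divided. From population 3 to 4, 4 of the 8 above 100 were higher by 2-fold or more, against 7.94% of measured genes, 1 was lower and 3 lay between. Vwf, which was highest in population 1 at 1566, went from 870 to 166. Itga2b went from 2418 to 1609.5, while Itgb3 went from 503 to 1354 and Gp1bb from below 100 to 516. The myeloid sums of populations 3 and 4 were close. Of the 4 myeloid markers above 100, 3 (Spi1, Mpo and Cd68) were at lower signals in population 4 than in 3, and Csf1r went from 222 to 388. Between these populations 0 of the 4 differed by 2-fold or more. The part of cells with any of these markers in the result was not tested.

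The promoters of genes that move together can be set side by side. RefSeq promoter windows of GRCm38.p6, from 250 bases before to 50 after the start site, were given for 4 of the measured genes, Epb42, Kel, Rhag and Sptb. The letters AGATAA and TGATAA, the core that GATA factors such as the erythroid Gata1 are known to bind, were searched on both strands, and the pair differ in their first base alone. Of the 4 genes 3 held at least 1 match, and of all 32851 windows searched 18.6% did. The windows of 1 chromosome were left out of the search, and shares of all windows are of those searched. The 30 bases around these matches are shown because they lie in genes that share the step to population 4, with the searched letters in capitals and the sequence on the strand of the gene.
Kel, chr6:41704327-41704356, minus strand: gtgttccctcacTGATAAgcaggctccacc
Kel, chr6:41704364-41704393, minus strand: cctgagaaactaAGATAAaagaggaggtga
Rhag, chr17:40811106-40811135, plus strand: agtcctctgctcTTATCAacactatacagc
Epb42, chr2:121037086-121037115, minus strand: gtctctatttccTTATCTcgttcaaacaga
The matches began 19 and 56 bases before the start site in Kel, 31 in Rhag and 226 in Epb42, the last pair read on the opposite strand. Sptb held neither set of letters in its window. CACCC, the core bound by Klf factors, was present in Kel, Rhag and Sptb and in 57.5% of all windows. The Runx letters TGTGGT were present in Rhag, 212 bases before its start site, and in 16.8% of all windows, while TGCGGT was in none of the 4 and in 6.45% of all. The 3 windows of Epb41, which has no signal here, held none of the 5 sets of letters. Such matches describe letters and not binding.

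Of the 16 blood transcription factor genes listed, 15 were above 100 in at least 1 population, and 3 (Gata1, Klf1 and Nfe2) also stood among the erythroid markers. From population 1 to 4, 11 were higher by 2-fold or more and 0 lower, and from population 3 to 4, 8 were higher, where 22.4% and 7.94% of measured genes were. Gata1 was at 15.1, 26.9, 50.7 and 2065 in populations 1 to 4. Klf1, the erythroid Kruppel-like factor, was at 6.08, 34.8, 25.6 and 2538. Both were below 100 up to population 3, as were 6 of the red cell membrane genes. Nfe2, a bZIP factor of erythroid and megakaryocytic cells, was at 277 in population 3 and 2373 in population 4.

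The red cell proteins have relatives that serve other tissues, and 16 of the 33 listed relatives were above 100 in at least 1 population. Of these, 5 were lower and 3 higher by 2-fold or more from population 1 to 4, beside 12.9% and 22.4% of all measured genes. Their median log2 ratio was -0.64, beside 0.36 over all measured genes. The spectrins of other cells ran opposite to Sptb. Sptan1, the alpha spectrin of non-erythroid cells, had signals of 4578, 3772, 4156 and 808, 5.67-fold lower in population 4, and its second probe set was 5.93-fold lower. Sptbn1, the corresponding beta spectrin, had 8423, 5926, 8064 and 2049, 4.11-fold lower.

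The ankyrins did not follow that pattern. Ank3, the ankyrin of epithelial and neuronal membranes, had signals of 68.2, 289, 340 and 1176 in populations 1 to 4, at least 11.8-fold higher in population 4, and was above 100 from population 2 onwards, where Ank1 was not. A second probe set of Ank3 gave 51.4, 211, 299 and 898. Others reached 329 and 121 in population 4 but were below 100 in populations 1 to 3, as Ank1 was. The rest were below 100 throughout. Ank2 had 146, 211, 189 and 49.7, a log2 ratio of at most -0.55. By their brightest probe sets Ank1 and Ank3 were both highest in population 4, but Ank3 was also above 100 in populations 2 and 3. This difference between Ank1 and Ank3 was not shared by every probe set of Ank3.

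In the Epb41-like family, to which Epb41 gives its name, Epb41l3 had signals of 348, 559, 441 and 63.8, at least 3.48-fold lower in population 4. Epb41l5 ran the other way with 138, 199, 215 and 424, and Epb41l2 had 1211, 985, 1073 and 622, a log2 ratio of -0.96. Other probe sets of Epb41l2 differed in size, with 395, 255, 297 and 101 by one, 3.92-fold lower in population 4. Another had 169, 140, 182 and 111, 1.52-fold lower. The family was thus divided among its members.

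The transglutaminase Tgm2 had signals of 2164, 1364, 3022 and 809, a log2 ratio of -1.42, where its relative Epb42 was higher in population 4. F13a1, the coagulation transglutaminase chain made by megakaryocytes and macrophages, was at 407 in population 3 and 240 in population 4 and below 100 before. Ece1, the endothelin-converting peptidase related to Kel, had 1814, 643, 1206 and 225, 8.07-fold lower in population 4. Slc4a2, the anion exchanger of most other cells, had 231, 184, 224 and 117, a log2 ratio of -0.98. Slc4a2 and Epb41l2 reached log2 ratios of -1.07 and -1.05 after centring, and of -0.65 and -0.63 scaled on the hybridisation controls, so that neither has a settled place beside the 2-fold limit. The relatives of Rhag, Rhbg and Rhcg, and Rhd of the same family were below 100 in every population.

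**Figure D3:**
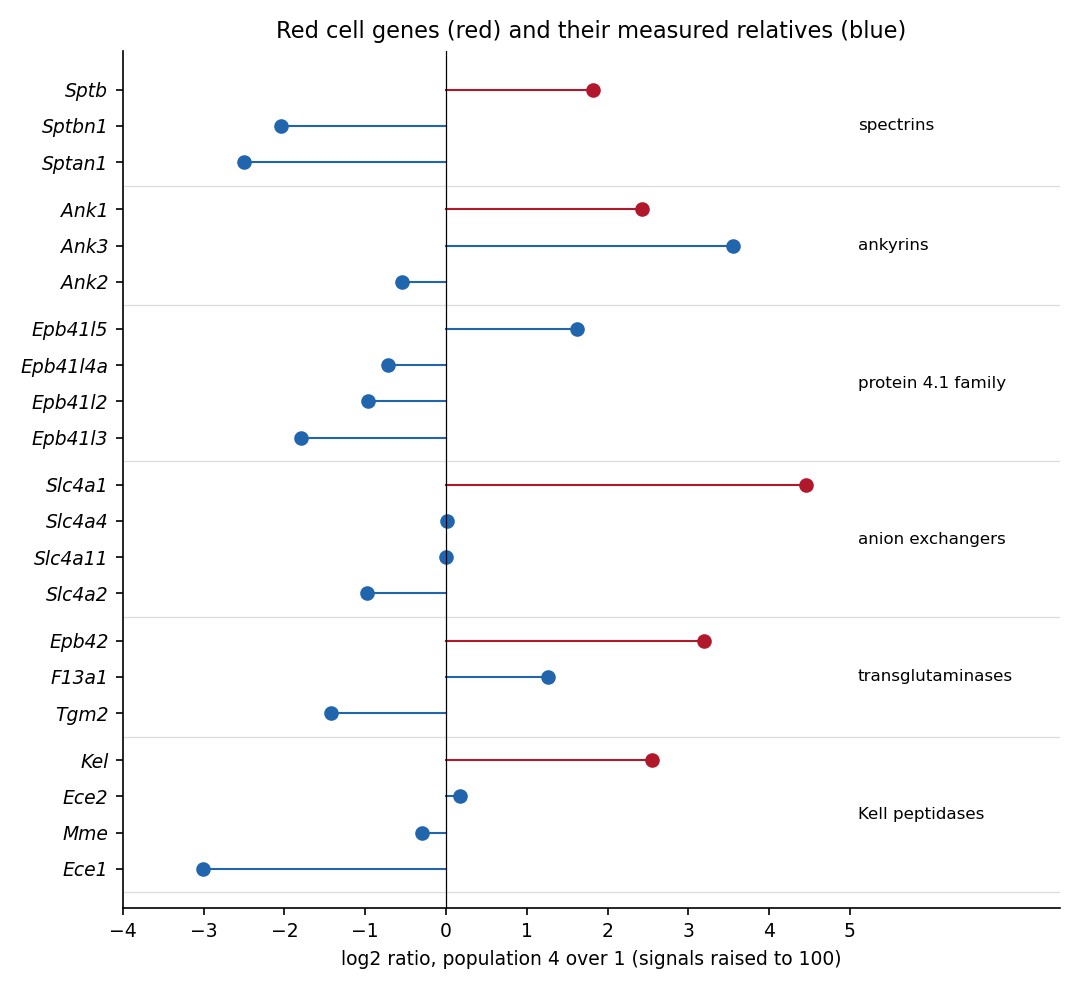
Log2 ratio of population 4 over population 1 (signals raised to 100, 1 array per population, no error) for red cell membrane genes (red) and the relatives of each that exceeded 100 in at least 1 population (blue), by family. Sptb lies at 1.82 with Sptbn1 at -2.04, and Kel at 2.55 with Ece1 at -3.01, while Ank3 at 3.56 lies on the same side as Ank1.

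Of 47 further red cell membrane and skeleton genes, 37 were above 100 in at least 1 population, of which 12 were higher and 6 lower by 2-fold or more from population 1 to 4, beside 22.4% and 12.9% of all measured genes. Over the 37 genes the median log2 ratio was 0.20, where that over all measured genes was 0.36. The parts of the skeleton differed among themselves. At the junctions, Tmod1, which caps the ends of the short actin filaments, had signals of 83.2, 106, 148 and 1909 in populations 1 to 4, at least 19.1-fold higher in population 4. Tmod3, the tropomodulin of many cell types, had 1001, 959, 1349 and 1149. Add2, the beta adducin of red cells, had 111, 78.4, 43.1 and 959 by its brightest probe set, 8.63-fold higher in population 4. Another probe set had 117, 60.4, 55.8 and 373, 3.17-fold higher. The remaining ones, below 100 in population 1, were at least 2.05-fold, 2.11-fold and 3.32-fold higher. Add1, the alpha adducin of most cells, had 1207, 1099, 1396 and 1401. Tmod1 and Add2 were thus higher in population 4, while Tmod3 and Add1 were within 0.22 of 0 on the log2 scale as deposited and below 0 after quantile normalisation, at -0.08 and -0.07, and were at 0.53 and 0.55 scaled on the hybridisation controls.

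Mpp1, which joins Gypc to Epb41 at the junction, had signals of 333, 182, 264 and 149, a log2 ratio of -1.16, opposite to Gypc. Scaled on the hybridisation controls its log2 ratio was -0.83. Tpm1, a tropomyosin, had a log2 ratio of -0.71. Dmtn, dematin, which bundles actin, reached at most 111 in any population by any of its 3 probe sets. Not every part of the junctional complex was thus higher where Gypc and Tmod1 were.

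Among membrane proteins and antigens, Kcnn4, the calcium-gated potassium channel of red cells, had signals of 6.41, 11.7, 35.8 and 1386, at least 13.9-fold higher in population 4. Abcb6, a porphyrin transporter that carries the Langereis antigen, had 137, 283, 375 and 1748, 12.7-fold higher in population 4. Car2, a carbonic anhydrase that supplies bicarbonate to the anion exchanger, had 1221, 4722, 5511 and 9870.3, higher from population 2 onwards. Ermap and Icam4, carriers of the Scianna and Landsteiner-Wiener antigens, were below 100 in populations 1 to 3 and reached 808 and 326. Xk, the partner protein of Kel, did not exceed 16.4 in any population by either probe set. In the opposite direction, Aqp1, the water channel of both red cells and endothelium, had 587, 303, 520 and 94.4, at least 5.87-fold lower in population 4. Basp1, a membrane-bound cytoskeletal protein, had 3916, 2184, 2111 and 446. It was counted because the list held it, and whether red cells use it was not examined.

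**Figure D4:**
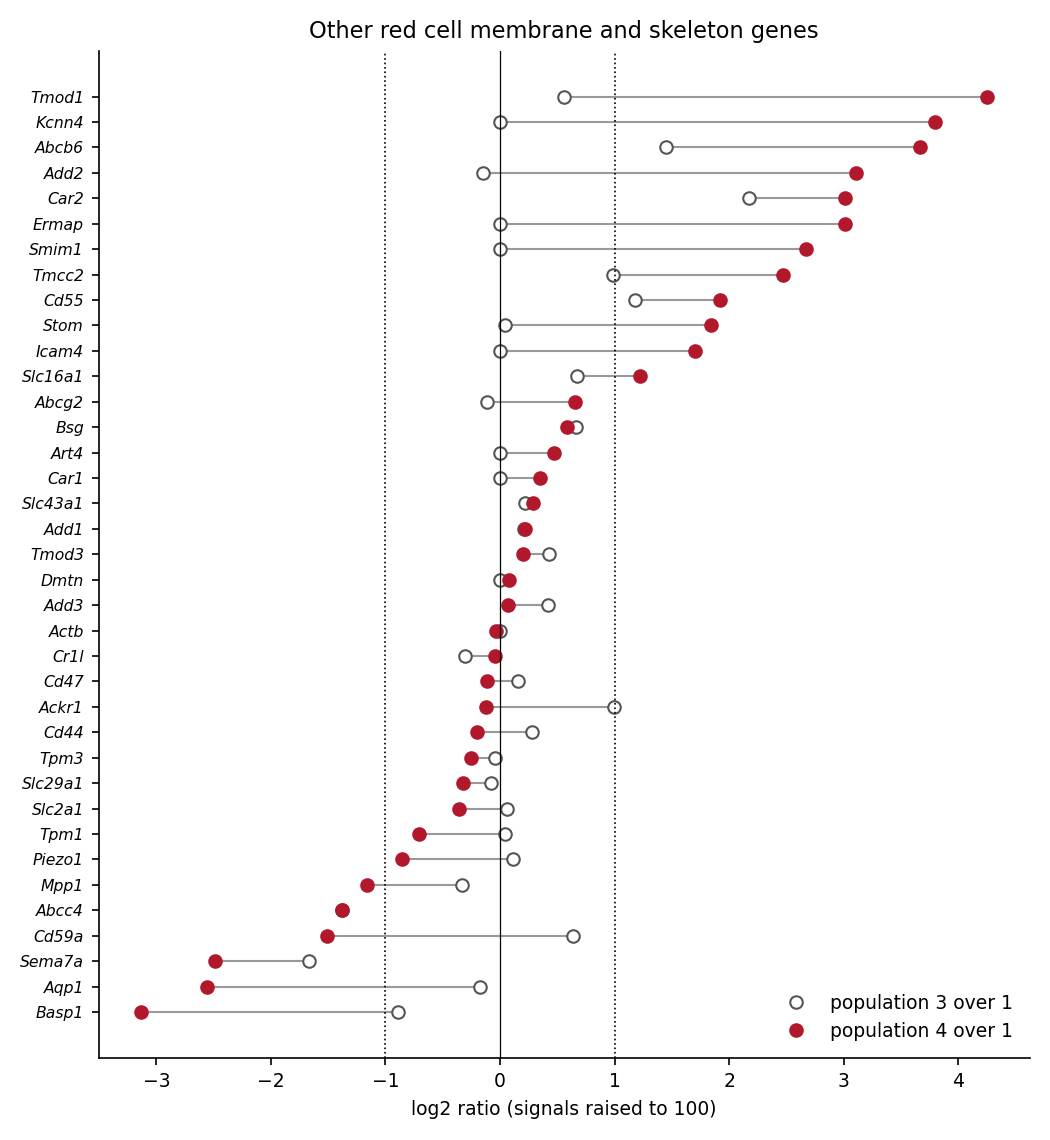
Log2 ratios (signals raised to 100, 1 array per population, no error) of the 37 measured further red cell membrane and skeleton genes, with population 3 over 1 in open and population 4 over 1 in filled circles, and dotted lines at -1 and 1. Tmod1, Kcnn4 and Abcb6 lie at 4.25, 3.79 and 3.67 for population 4 over 1, and Aqp1 and Basp1 at -2.55 and -3.13.

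The genes most like the listed ones in shape were found by the root mean square distance, over the 4 populations, between each gene's log2 signals, raised to 100 and centred on their mean, and the mean of the 7 genes. The 5 nearest were Cdc25b, 3110040M04Rik, Ube2t, Olfm1 and Smim1, at 0.06 to 0.09. Smim1 encodes the carrier of the Vel blood group antigen and had signals of 34.6, 35.2, 55.1 and 638 in populations 1 to 4. Cdc25b, a phosphatase that triggers mitosis, had 49.1, 120, 125 and 667. The listed genes, each part of that mean, lay at 0.10 to 0.79 from it, and 1631 other measured genes (17.2%) lay nearer than the farthest of them. For genes below 100 in populations 1 to 3 the distance depends on the signal in population 4 alone. The mean also mixed Gypc, which rose at each step, with 6 genes made level over populations 1 to 3 by raising signals to 100. The mean thus had the shape of neither. Cdc25b, 3110040M04Rik and Ube2t were above 100 in populations 2 and 3, where 6 of the 7 listed genes were not.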

How the data were processed

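The authors hybridised RNA of the 4 sorted populations to Affymetrix whole-genome mouse arrays, 1 each, and deposited probe set signals in linear intensity units, for which the submitters' processing notes name MAS5 and GCOS 1.3. Scaling target and detection calls are not given in the sources used here. Of 45101 probe sets, 34958 carried 1 gene symbol, 932 several and 9211 none in the annotation, updated through RefSeq gene records. Where a gene had several probe sets, the brightest on average (log2 scale) stood for it. Signals were raised to 100 before log2 ratios. The listed genes and the other lists were chosen with earlier results of these data known. Up to 4 genes of each list with the largest difference between populations 4 and 1 are named, with the 5 nearest in shape. Hbb-bh1, Hba-x, Hbb-y, Alas2, Vwf, Itgb3, Gp1bb, Dmtn, Xk, Ermap, Icam4, Aqp1, Add1, Tmod3 and, for the stepwise pattern, Runx1 were named after their values were seen. Alternatives covered scaling, probe set choice, floor, fold and filter. Planted folds in simulated signals tested the arithmetic. Planned protein comparisons were not run. Python 3.11.15, pandas 2.3.3, numpy 2.4.6 and matplotlib 3.10.9 were used.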

Additional observations from a re-analysis of the deposited data

How the results depend on the processing

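No paired analysis was possible because each population has 1 array. For the 7 genes, the counts at least 2-fold higher in population 4 over 1 and over 3 were 7 under centring, quantile normalisation and scaling on the hybridisation controls, where the medians ranged from 2.40 to 2.73 and from 2.29 to 2.60 on the log2 scale. With the mean over probe sets these medians were 1.81 and 1.61, with signals raised to 50 both were 3.27, with signals raised to 200 they were 1.55 and 1.42, and without a floor 5.03 and 4.65, as follows from moving the bound. The counts fell to 6 with the mean over probe sets (without Ank1) and with signals raised to 200 (without Sptb), and at least 4-fold they were 6 and 5. In population 3 over 1, 4 genes in place of 1 were at least 2-fold higher without a floor, from signals below 100, and 0 were at least 4-fold higher. The median over all measured genes for population 4 over 1 was 0.36 as deposited, 0.28 after centring, 0.12 after quantile normalisation and 0.65 scaled on the hybridisation controls. The 6 genes measured in population 4 alone were 6 under each scaling, while Gypc met 1.5-fold at each step as deposited and on the controls and not after centring or quantile normalisation, checks chosen after seeing the data. Of the values of single genes under alternatives, 96 belonged to ratios that were 0 as reported, with both signals below 100, and most of these stayed at 0 because a signal below 100 is raised to the floor. Of the other 128, 79 moved by less than the difference between probe sets (0.29) and 49 by more. The relatives and further membrane genes reported with a 2-fold or larger difference between populations 4 and 1 kept their direction under each of the 3 other scalings.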
